A study of Gossypium hirsutum with 6 samples.

Results

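Those genes of ethylene synthesis that could be named on the cotton array were described in drought and control leaves of Bikaneri Nerma, a cultivar of upland cotton (Gossypium hirsutum). They are the 1-aminocyclopropane-1-carboxylic acid (ACC) synthases and ACC oxidases that the RefSeq gene table names: ACS1 (LOC107950760), ACS3 (LOC107947061, also called ACS6), ACS (LOC107923295), both genes called ACO1 (LOC107954048 and LOC107905899) and ACO3 (LOC107915412). Every probe set that the platform's gene table pairs with just 1 of these genes was taken, which gave 9 probe sets for 6 of the 520 genes that have such a probe set. ACS has 4 of the 9 probe sets and each other gene has 1. Of the 24029 tested probe sets 23286 have no gene in the platform's table, so other genes of these families may be measured but not named. The tables give the older symbol ACS for LOC107923295 without spelling it out; it was read as an ACC synthase from its symbol.

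The drought group had 3 arrays of leaves from plants whose watering was stopped at peak flowering, and the control group had 3 arrays of leaves from control plots. Drought leaves were taken 18 to 19 days after the last irrigation, at a soil moisture of 19.5%, which was 50% of that of control plots. Plants of 1 cultivar stood in 6 open-field plots per arm, with a rain shelter drawn over the drought plots, and the labels do not say how many plants or which plots an array stands for, so the tests measure the spread between these samples. No batch or date is given in the labels.

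Ethylene is made from S-adenosylmethionine in a short pathway. ACC synthase turns S-adenosylmethionine into ACC, a step that often limits the rate, and ACC oxidase turns ACC into ethylene. Both enzymes come from gene families whose members are switched on in different organs and by different stresses. In leaves the hormone is best known for its part in senescence and leaf shedding. Ethylene response factors (ERF) are a family of transcription factors named after it, and the name alone does not show that a member responds to ethylene.

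In drought leaves the 2 ACO1 genes were almost 6-fold higher than in control leaves, ACS1 was higher by less than 2-fold, and ACS3 was lower by just over 2-fold. ACO3 and ACS differed little. With 1 probe set per gene, 4 genes rose, 1 fell and 1 did not pass an adjusted p of 0.05 in limma. Centring the arrays on their hybridisation spike-ins left 3 genes higher and 1 lower, since ACO3 then no longer passed. The share of all tested probe sets under that centring was 16.6% higher and 30.2% lower. The spike-in medians also varied within groups, from 0.0116 to 0.245 among drought arrays. Every adjusted p and call under this centring carries that spread, which all probe sets share. Of all 24029 tested probe sets, 55.7% passed, 35.3% as higher and 20.4% as lower, so a count of 5 in 6 genes is to be read against a background in which most probe sets passed. Over the 9 probe sets 5 rose, 1 fell and 3 did not pass. The median difference was 0.49 on the log2 scale over the 6 genes and 0.20 over the 9 probe sets, beside 0.12 over all tested probe sets. In RNA of whole leaves, fewer cells of a type and less RNA per cell cannot be told apart.

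All values are log2 signals that had been centred on the median of each probe set over the 6 arrays. A value of 0 is therefore the midpoint of that probe set and not absence, and levels cannot be compared between genes. Where the groups do not overlap, the lowest value of the higher group and the highest value of the lower group are mirror images by this centring.

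**Figure D1:**
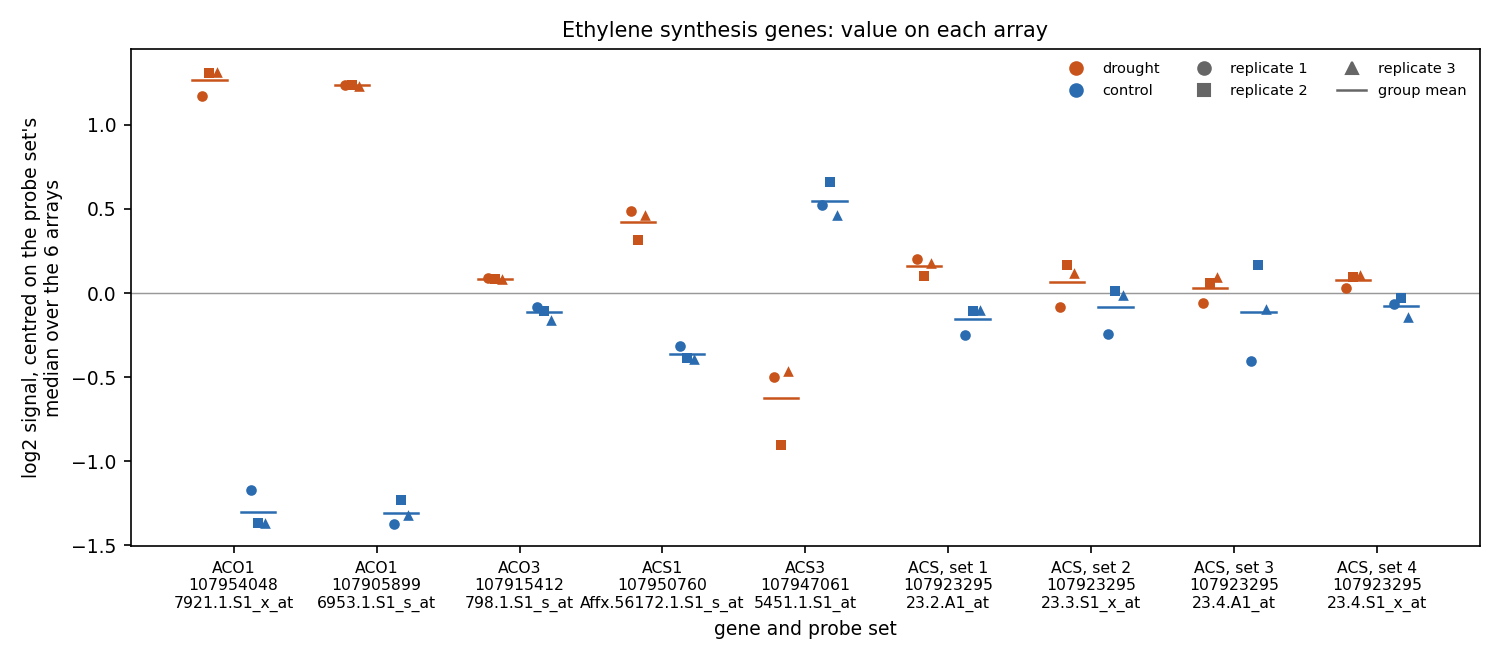
The vertical axis gives the log2 signal centred on each probe set's median over the 6 arrays, and each of the 9 probe sets has its 3 drought arrays (orange, left) and its 3 control arrays (blue, right), with marker shapes for replicate numbers and lines for group means. Labels give the older gene name, the number of the locus and the probe set without its Ghi prefix, with the ACS probe sets numbered in ID order. Drought arrays lie far above control arrays for both ACO1 genes and below them for ACS3, while the groups overlap for 2 of the 4 ACS probe sets.

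Of the ACC synthases, ACS1 had centred log2 values of 0.49, 0.31 and 0.46 in drought replicates 1, 2 and 3, against -0.31, -0.39 and -0.39 in control replicates 1, 2 and 3. The groups did not overlap, with a gap of 0.63 between the lowest drought and the highest control array. Over all tested probe sets, drought arrays lay wholly above control arrays in 40.1% and wholly below in 22.7%. The mean of ACS1 was 0.42 ± 0.09 in drought leaves and -0.36 ± 0.04 in control leaves (SD, n = 3 arrays each). ACS1 rose by 0.79 on the log2 scale (SE 0.08, 95% confidence interval 0.61 to 0.96, 1.72-fold, limma adjusted p = 3.2e-05). Among all tested probe sets, 2406 had a larger increase.

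ACS3 moved the other way. Its values were -0.50, -0.90 and -0.46 in drought replicates 1, 2 and 3, against 0.52, 0.66 and 0.46 in control replicates 1, 2 and 3. All drought arrays lay below all control arrays, and drought replicate 2 was the lowest. The mean was -0.62 ± 0.25 in drought leaves and 0.55 ± 0.10 in control leaves (SD, n = 3 arrays each). ACS3 fell by 1.17 on the log2 scale (SE 0.12, 95% confidence interval -1.45 to -0.88, 2.25-fold, limma adjusted p = 5.9e-05). Of the 9 probe sets it had the second largest spread within groups: its residual SD of 0.188 was larger than that of 84.0% of tested probe sets. It was the only member that passed as at least 2-fold lower, as did 8.63% of all tested probe sets.

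ACS was read by 4 probe sets of 1 sequence cluster of the array, numbered here 1 to 4 in ID order. Probe sets 1 and 3 are of antisense design, so which strand they read was not tested. On probe set 1 the values were 0.20, 0.10 and 0.18 in drought leaves, against -0.25, -0.10 and -0.10 in control leaves. These groups did not overlap, and this probe set rose by 0.31 (SE 0.07, 95% confidence interval 0.14 to 0.48, limma adjusted p = 0.007). Under spike-in centring its difference was 0.07 and did not pass (limma adjusted p = 0.711). Probe set 2, of sense design and the one taken where 1 per gene is needed, had -0.09, 0.17 and 0.12 in drought leaves, against -0.24, 0.01 and -0.01 in control leaves. Drought replicate 1 lay among the control arrays there.

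The difference on ACS probe set 2 was 0.15 (95% confidence interval -0.08 to 0.38, limma adjusted p = 0.246). On probe set 3 it was 0.14 (95% confidence interval -0.17 to 0.45, adjusted p = 0.401), and control replicates 1 and 2, at -0.41 and 0.17, spanned all drought arrays. On probe set 4 it was 0.16 (adjusted p = 0.0845), although its drought values of 0.03, 0.09 and 0.11 were all above its control values of -0.07, -0.03 and -0.14. The differences of the 4 probe sets ran from 0.14 to 0.31, and an exact test of 3 against 3 arrays cannot show whether they differ from each other. A further probe set of the cluster, also of antisense design, is paired with no gene. It differed by 0.06 (95% confidence interval -0.18 to 0.29, limma adjusted p = 0.673).

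Of the ACC oxidases, ACO1 (LOC107954048) had values of 1.17, 1.31 and 1.31 in drought replicates 1, 2 and 3, against -1.17, -1.37 and -1.37 in control replicates 1, 2 and 3. ACO1 (LOC107905899) had 1.23, 1.24 and 1.23 in drought leaves, against -1.37, -1.23 and -1.32 in control leaves. In both genes every drought array was above every control array, with gaps of 2.34 and 2.46. The means of ACO1 (LOC107954048) were 1.26 ± 0.08 in drought leaves and -1.30 ± 0.11 in control leaves (SD, n = 3 arrays each). Those of ACO1 (LOC107905899) were 1.23 ± 0.0046 in drought leaves and -1.31 ± 0.07 in control leaves (SD, n = 3 arrays each).

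ACO1 (LOC107954048) rose by 2.57 on the log2 scale (SE 0.09, 95% confidence interval 2.37 to 2.76, 5.92-fold, limma adjusted p = 3.45e-08). ACO1 (LOC107905899) rose by 2.54 (SE 0.07, 95% confidence interval 2.38 to 2.70, 5.82-fold, limma adjusted p = 1.2e-08). Only 196 and 204 of the tested probe sets had larger increases. Quantile normalization, run on the centred values, gave 3.47 and 3.43. It forces 1 distribution on drought and control arrays whose centred values correlate at -0.945 to -0.935. These values are therefore not estimates of a larger response. The 2 ACO1 genes were the only members that passed as at least 2-fold higher, as did 6.63% of all tested probe sets. Their probe sets carry the suffixes _x_at and _s_at, which Affymetrix gives to probe sets with probes that can match further transcripts. The same holds for 6 of the 9 probe sets, ACS1's among them, and not for that of ACS3. Upland cotton carries the gene copies of both of its ancestral genomes, so the 2 values may share transcripts with each other or with copies not named here.

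ACO3 had values of 0.09, 0.08 and 0.08 in drought leaves, against -0.08, -0.11 and -0.16 in control leaves. The groups did not overlap, but the gap was only 0.16. Its means were 0.09 ± 0.0054 in drought leaves and -0.11 ± 0.04 in control leaves (SD, n = 3 arrays each). ACO3 rose by 0.20 (SE 0.07, 95% confidence interval 0.05 to 0.35, 1.15-fold, limma adjusted p = 0.0291), and 9867 tested probe sets had a larger increase. It passed in 3 of 13 other settings, which were other scalings of the arrays, other fits and fits without 1 array, and its difference was -0.05 once arrays were centred on the hybridisation spike-ins (limma adjusted p = 0.796). Its probe set is also of the _s_at kind.

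**Figure D2:**
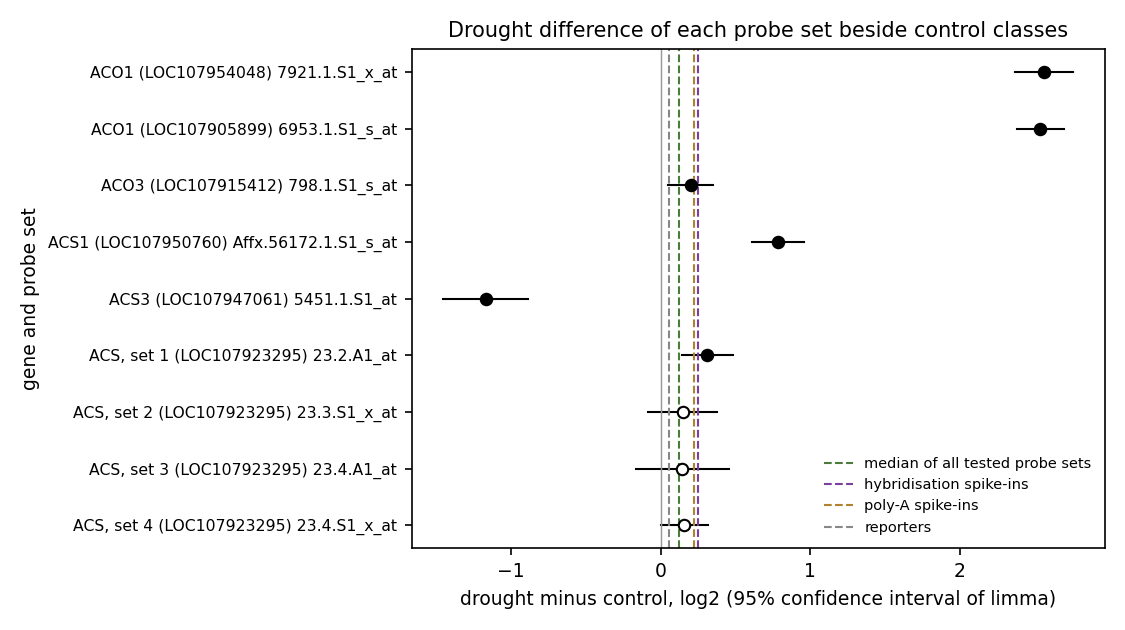
Points give the drought minus control difference of each of the 9 probe sets on the log2 scale, with limma's 95% confidence intervals; filled points passed an adjusted p of 0.05, and dashed lines mark the median of all tested probe sets and the differences of the array medians of 3 classes of control probe sets. The intervals of both ACO1 genes, ACS1 and ACS3 lie clear of all 4 lines, and those of ACO3 and of the 4 ACS probe sets cross the lines of the spike-ins.

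Probe sets that measure no leaf transcript differed as well. Array medians were higher in drought by 0.247 for the 27 hybridisation spike-ins, RNA added in fixed amounts, by 0.224 for the 42 poly-A spike-ins and by 0.0557 for the 52 reporters, made to sequences foreign to cotton. Of the reporters 9 passed the same limma test (17.3%), and the largest of their differences was 0.51. The ACO3 and ACS differences were thus of the size seen for control probe sets, and those of ACO1, ACS1 and ACS3 were larger than the largest reporter difference. Their share in the members' values was not tested.

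**Figure D3:**
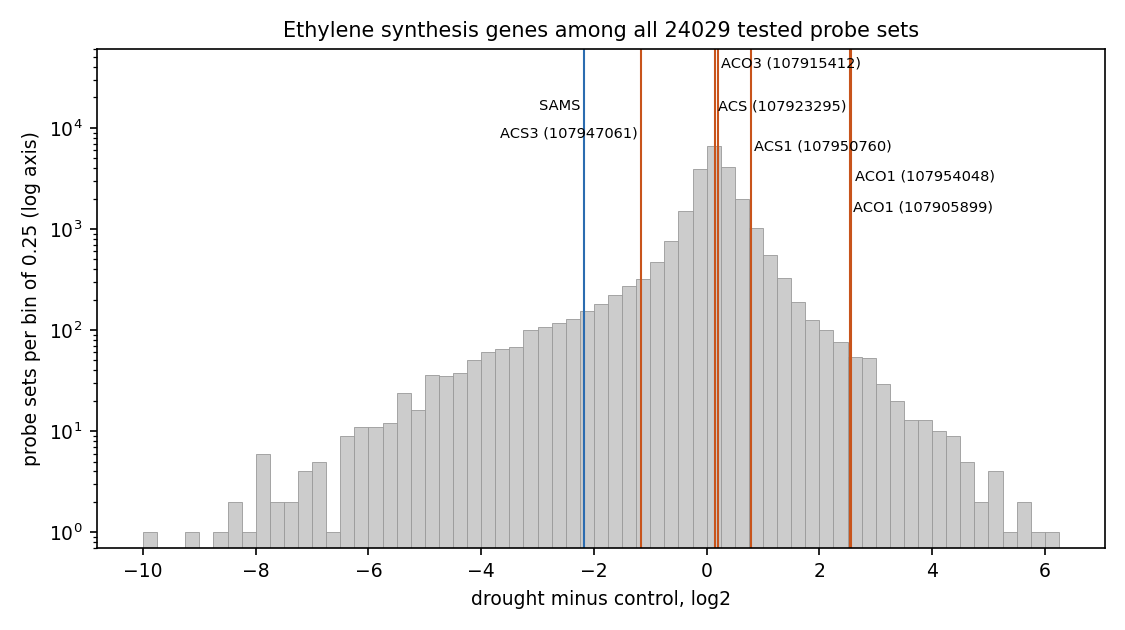
Grey bars count the 24029 tested probe sets by their drought minus control difference on the log2 scale, in bins of 0.25 with a log vertical axis, and lines mark 1 probe set of each of the 6 ethylene synthesis genes (orange) and of the S-adenosylmethionine synthetase gene SAMS (blue). The ACO1 genes lie in the upper tail at 2.57 and 2.54, ACS3 at -1.17 and SAMS at -2.17 in the lower tail, and ACO3 and ACS near the peak.

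All 15 pairs of the 6 genes were compared within arrays, by taking the value of 1 gene minus that of the other on each array and setting drought arrays against control arrays. This removes any offset that an array adds to all its probe sets. For 13 of the 15 pairs the drought and control arrays did not overlap. Each of these had an exact permutation p of 0.1 (two-sided, adjusted p = 0.115 over the 15 pairs), which is the smallest that 3 against 3 arrays can give, so no pair could pass. The share of pairs without overlap among all tested probe sets was not computed, and 62.8% of single probe sets had no overlap. The 15 pairs also reuse the same 6 genes, so their count describes them and tests nothing.

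ACS1 minus ACS3 averaged 1.04 ± 0.15 in drought leaves and -0.91 ± 0.11 in control leaves (SD, n = 3 arrays each). The responses of these ACC synthase genes thus lay 1.96 log2 units apart. ACO1 (LOC107954048) minus ACO3 averaged 1.18 ± 0.09 in drought leaves and -1.19 ± 0.09 in control leaves (SD, n = 3 arrays each), a difference of responses of 2.37. ACO1 (LOC107954048) minus ACS1 averaged 0.84 ± 0.16 in drought leaves and -0.94 ± 0.07 in control leaves (SD, n = 3 arrays each), a difference of 1.78. Within both families, ACC synthases and ACC oxidases, there were thus pairs of genes whose drought responses lay further apart than the spread between arrays.

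The 2 pairs with overlap were ACO1 with ACO1 and ACO3 with ACS. ACO1 (LOC107954048) minus ACO1 (LOC107905899) averaged 0.03 ± 0.08 in drought leaves and 0.01 ± 0.18 in control leaves (SD, n = 3 arrays each). Their responses differed by 0.02 (exact permutation p = 0.9), and by -0.05 to 0.12 when 1 array was left out. ACO3 minus ACS differed by 0.05 between the groups (exact permutation p = 0.5).

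The genes with an older name whose 6 array values lay closest to those of each member were found by the root mean square difference over the 6 arrays. For ACO1 (LOC107954048) they were XTH3, a xyloglucan-modifying enzyme gene, at 0.113 log2 units, and the other ACO1, at 0.114. The same genes came first for ACO1 (LOC107905899), with the other ACO1 at 0.114 and XTH3 at 0.130. The median distance to the named genes was 1.35 and 1.33 for the ACO1 genes. Neighbours were chosen as the smallest distances, so lying below the median follows from the choice, for these and the other members. For ACS1 the closest were MAPK, a MAP kinase gene, at 0.0451 and CPR1 at 0.0529. For ACS3 they were CCoAMOT2, read from its symbol as a caffeoyl-CoA methyltransferase gene of lignin synthesis, at 0.0686 and PK1 at 0.122. For ACO3 they were Di19-2, a drought-induced zinc finger gene, at 0.0200 and WD1521 at 0.0459. For ACS they were KCS10 and LEGB at 0.0878 and 0.0922, against a median of 0.344. The values of ACO3 and of ACS probe set 2, which were used here, all lay within 0.25 of 0.

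A list of other named genes around the pathway was made from symbol prefixes. It held S-adenosylmethionine synthetase (SAMS, LOC107910531), S-adenosylmethionine decarboxylase (SAMDC, LOC107887408) and the response factor genes ERF3, ERF7, ERF8 and ERF9. SAMDC uses the same S-adenosylmethionine but is not a step of ethylene synthesis. No ethylene receptor or EIN gene was among the named ones. In this list of 6 genes 5 passed as higher and 1 as lower, where 35.3% of all tested probe sets passed as higher and 20.4% as lower. The median was 0.32, beside 0.12 over all tested probe sets. Under spike-in centring, 2 genes were higher and 1 lower at the threshold, as were 16.6% and 30.2% of all tested probe sets. All 6 had groups that did not overlap, as did 62.8% of all tested probe sets.

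The gene that fell was SAMS, whose enzyme makes the S-adenosylmethionine that ACC synthase uses. Its values were -1.01, -1.23 and -1.18 in drought replicates 1, 2 and 3, against 1.05, 1.01 and 1.04 in control replicates 1, 2 and 3. Every drought array lay below every control array. SAMS fell by 2.17 on the log2 scale (SE 0.08, 95% confidence interval -2.36 to -1.99, 4.51-fold, limma adjusted p = 5.96e-08), and by 1.76 to 2.42 in the 13 other settings, in all of which it passed. This probe set also has the suffix _s_at, so other S-adenosylmethionine synthetase transcripts may share its probes.

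SAMDC, whose enzyme takes S-adenosylmethionine into polyamine synthesis, had 0.17, 0.11 and 0.15 in drought leaves, against -0.12, -0.18 and -0.11 in control leaves. It rose by 0.28 (SE 0.07, limma adjusted p = 0.00625), and its difference was 0.04 under spike-in centring (limma adjusted p = 0.845). The small rise of SAMDC and the fall of SAMS were thus of very unequal size.

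Among the response factors, ERF7 had 0.82, 0.96 and 0.91 in drought leaves, against -1.07, -0.999 and -0.82 in control leaves. ERF7 rose by 1.86 (SE 0.09, 3.63-fold, limma adjusted p = 2.85e-07) and ERF8 by 1.01 (SE 0.10, 2.02-fold, limma adjusted p = 3.36e-05), and both passed in all 13 other settings. ERF3 rose by 0.35 (SE 0.08, limma adjusted p = 0.0059), with 0.11 under the spike-in centring, where it did not pass (adjusted p = 0.535). ERF9 rose by 0.26 on its sense-design probe set (SE 0.09, limma adjusted p = 0.0351), and passed in 3 of 13 other settings. On its antisense-design probe set the ERF9 groups overlapped and the 95% confidence interval was -0.25 to 0.25.

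**Figure D4:**
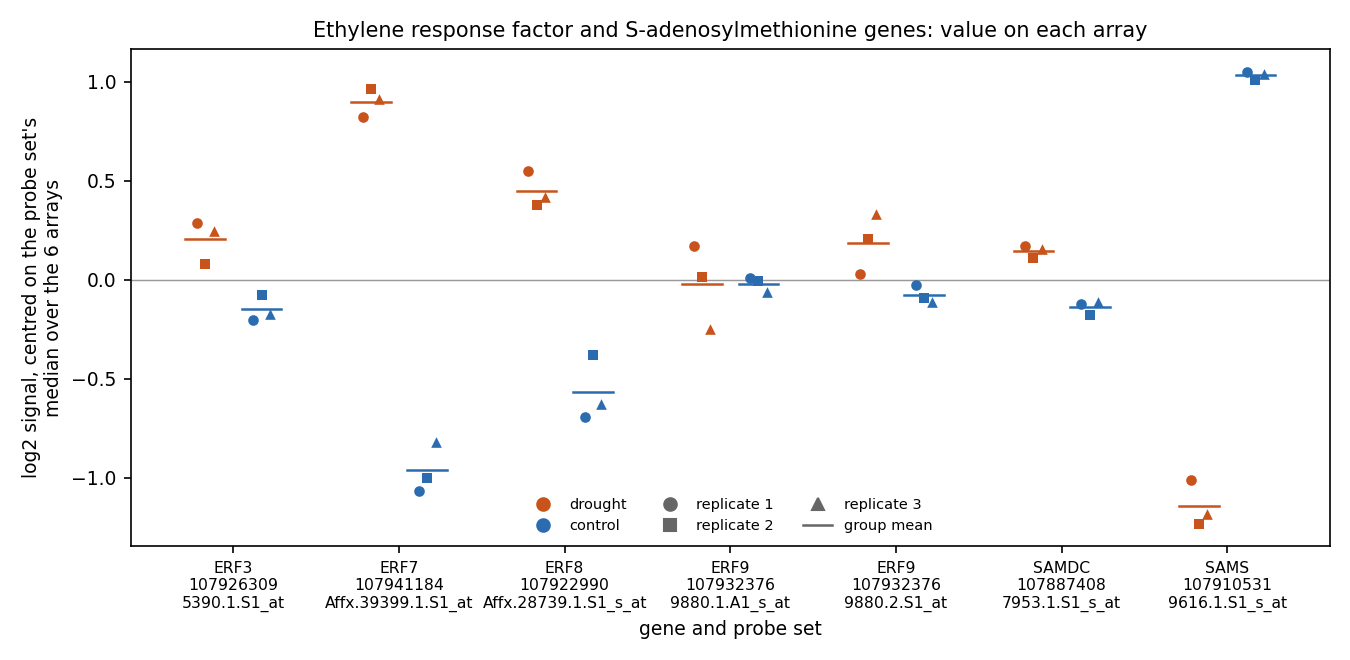
The vertical axis gives the log2 signal centred on each probe set's median over the 6 arrays for the 7 probe sets of the ERF genes, SAMDC and SAMS, with 3 drought arrays (orange, left) and 3 control arrays (blue, right) each and lines for group means. SAMS lies near -1.1 in drought and 1.0 in control arrays, and ERF7 near 0.9 in drought and -1.0 in control arrays.

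Genes listed by symbol for other tissues were compared between the same groups. Of 17 genes of a cotton fibre list, among them E6, H6L and 12 fasciclin-like arabinogalactan protein genes, 13 were lower in drought leaves and 1 was higher, with a median of -3.07. The fasciclin-like genes were taken by their family symbol, and whether they are particular to fibre was not tested. Over all tested probe sets 20.4% were lower and 35.3% higher, with a median of 0.12. Both flower MADS-box genes of the list fell, and neither of 2 seed storage genes passed. The Rubisco activase gene RCA1, a leaf marker, rose by 0.60. Centred values hold no level, so whether any of these listed genes was present or absent in the leaves could not be checked. Their part in the members' differences was not tested.

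**Figure D5:**
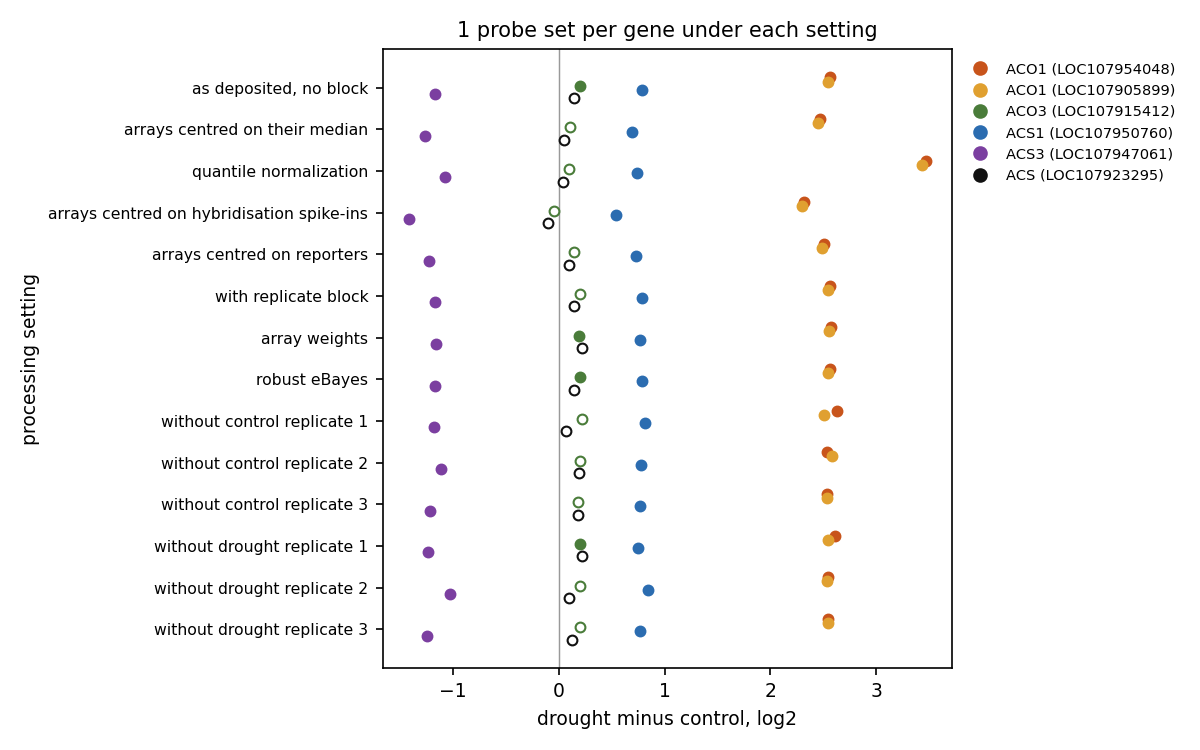
Each row is a processing setting and each point the drought minus control difference on the log2 scale of 1 probe set per gene, filled where it passed an adjusted p of 0.05. Both ACO1 genes, ACS1 and ACS3 keep their side of 0 and stay filled in every row, with ACO1 values of 3.47 and 3.43 after quantile normalization of the centred values, while ACO3 and ACS lie between -0.10 and 0.22 and are mostly or always open.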

How the data were processed

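Leaf RNA of 3 drought and 3 control samples was measured on Affymetrix cotton arrays. The deposited values are log2 signals from RMA as run by the authors, per the submitters' processing notes, which state no version. The log2 scale and direction are read from RMA's output and the range of values, and the centring of each probe set on its median (largest absolute row median 5e-07) from the values alone. The columns' medians over tested probe sets were 0.0294 to 0.0817 in drought and -0.0472 to -0.0367 in control arrays. In these centred values drought and control arrays correlated at -0.945 to -0.935 across probe sets, and arrays of the same group at 0.913 to 0.944. Both the centring and the differences between the groups enter these correlations.

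Of 24132 probe sets, 103 Affymetrix controls were left out. Drought was compared with control by limma 3.58.1 (lmFit, eBayes; R 4.3.3) over the whole table, without a block, with Benjamini-Hochberg adjustment over 24029 probe sets; every adjusted p and SE of a gene is from that fit. The fit was tested on simulated data. Pairs of genes were compared with exact permutation tests. By the platform's gene table, 697 probe sets have 1 gene, 46 have several and 23286 of those tested have none; names are the older symbols of the RefSeq table of assembly Gossypium_hirsutum_v2.1, in which all 520 genes were found. No positions are given, since no build is named for the array.

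Where 1 probe set per gene was needed, sense design came before antisense, then _at, _a_at, _s_at, _x_at, then ID order. All members and all genes of the pathway list are named, with the 2 closest named genes of each member. The pathway list was made from symbol prefixes. The members and lists were chosen with earlier results of these data known. The alternatives were other centrings and quantile normalization, a replicate block, array weights, robust eBayes and leaving out 1 array. The number of arrays limits the precision. Promoter motifs and sequences were not analysed here.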

Additional observations from a re-analysis of the deposited data

Results flagged for a closer look

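Control probe sets outside the tests were higher in drought than in control arrays: the array median of the hybridisation spike-ins was higher by 0.247, with drought arrays from 0.0116 to 0.245 and control arrays from -0.143 to -0.0123. That of the poly-A spike-ins was higher by 0.224, with drought arrays from 0.0768 to 0.156 and control arrays from -0.120 to -0.0748. The cause was not tested.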

How the results depend on the processing

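Both ACO1 genes, ACS1 and ACS3 kept their direction and passed in all 13 other settings. ACO1 (LOC107954048) ran from 2.32 with spike-in centring to 3.47 after quantile normalization, ACO1 (LOC107905899) from 2.29 to 3.43, ACS1 from 0.54 to 0.84 and ACS3 from -1.42 to -1.03. The upper ends for both ACO1 genes come from quantile normalization of values already centred per probe set, and are not estimates of a larger response. That setting was run on the centred values of every probe set, so its values, calls and shares for other genes carry the same limit. ACO3 no longer passed with arrays centred on their median (0.10), after quantile normalization (0.0982), with reporter centring (0.14) and with the replicate block (0.20, limma adjusted p = 0.0615), and turned to -0.0467 with spike-in centring. Spike-in centring also ended the call of ACS probe set 1 (0.066) and turned probe set 2 to -0.0991, 3 to -0.104 and 4 to -0.0892, and array weights brought the last past the threshold (0.17, limma adjusted p = 0.0414). Without 1 array, ACO3 ran from 0.18 to 0.22 and passed only without drought replicate 1, and ACS probe set 3 ran from -0.00397 (without control replicate 1) to 0.28; the other member probe sets kept their direction and side of the threshold. ACO1 minus ACO1 ran from -0.0460 to 0.12 and ACO3 minus ACS from -0.0267 to 0.15 without 1 array, and ACO3 minus ACS was -0.11 with ACS read on probe set 1; the other 13 pairs kept their sign. With spike-in centring 3989 probe sets were higher, against 8485 as deposited, and 2 of the ERF and S-adenosylmethionine genes in place of 5. The share of calls that were higher was 63.4% as deposited, 53.1% with median centring, 50.9% after quantile normalization and 35.5% with spike-in centring, and the median of all probe sets was -0.13 with the last. Median centring and quantile normalization level the centres of the arrays, and spike-in centring subtracts the spike-ins' offset from every probe set of an array. The shifts in these shares and in the median therefore follow from the settings. Which setting lies closest to the RNA of the leaves was not tested. Spike-in medians also varied within groups, so adjusted p and calls with spike-in centring carry a spread that all probe sets share.

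Same-numbered arrays of the 2 groups deviated from their group means with correlations of 0.0326 to 0.0741 across probe sets, below the 0.1 set for pairing, although each array correlated best with its own number. With the replicate block 8444 probe sets were higher and 4800 lower, and of the member probe sets only ACO3 changed its call. Pair differences under quantile normalization and without 1 array, and the settings of the pathway list other than spike-in centring and all probe sets, were chosen after seeing the data. With 3 arrays per group and no signal over background in centred values, dim probe sets could not be told from bright ones.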

Other observations

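The genes closest to the members over the 6 arrays carried these drought differences. XTH3, closest to ACO1 (LOC107954048) and the second closest to ACO1 (LOC107905899), rose by 2.45 on the log2 scale (SE 0.09, limma adjusted p = 5.62e-08). MAPK and CPR1, closest to ACS1, rose by 0.72 each (SE 0.07 each, limma adjusted p = 4.91e-05 and 3.77e-05). CCoAMOT2 and PK1, closest to ACS3, fell by 1.15 (SE 0.09, limma adjusted p = 8.67e-06) and 1.18 (SE 0.07, limma adjusted p = 1.29e-06). Since the values of these genes chose them, their differences describe the match and test nothing.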
